A study of Homo sapiens with 12 samples.

Results

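The second day of exposure of K-562 cells to Si-711 was examined here, by setting cells kept for 48 h in the compound against cells kept in it for 24 h. K-562, a long-established cell line from a patient with chronic myeloid leukemia, depends on the fusion kinase BCR-ABL1, and Si-711 is described in the series as an inhibitor of sirtuin 1 and sirtuin 2, a pair of NAD-dependent protein deacetylases. Polyadenylated RNA was sequenced from strand-specific libraries of 4 groups with 3 independent biological replicates each, namely cells at 48, 24 and 8 h in 5 µM Si-711 and untreated cells. All groups are the same line without any engineered change, and both groups compared received the same dose. Of 51112 genes in the deposited table, the 14424 with a normalized count of at least 10 in at least 3 of the 6 libraries at 48 and 24 h were compared. Cells kept for 24 or 48 h without the compound are not among the groups, so exposure time and time in culture cannot be told apart in any result below.

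Several systems that the results turn on share a logic of adjustment to growth and stress. The messenger RNAs of ribosomal proteins and of many translation factors begin with a C followed by an unbroken run of pyrimidines, the 5′ terminal oligopyrimidine tract, which couples their translation and stability to mTORC1 signaling. The integrated stress response is the program in which phosphorylation of the initiation factor eIF2 favors translation of the transcription factor ATF4, whose targets make and import amino acids. The heat shock response is the program in which the factor HSF1 binds repeats of GAA in promoters of chaperone genes, whose products refold or hold misfolded proteins. In K-562 cells the BCR-ABL1 kinase keeps STAT5, RAS and ERK signaling active, and SOCS, CISH, PIM and immediate early genes such as EGR1 are well known outputs of such signaling.

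The 48 h libraries summed to 34614827 to 37117837 normalized counts and the 24 h libraries to 27070528 to 28256228. Of the variance among the 6 libraries, 61.0% lay on the first principal component, which separated the times. The second held 12.2% and set 48 h replicate 1 apart, at -55.9 against 38.2 and 20.6 for the other 48 h libraries. In all 12 libraries, 24 h replicate 1 lay nearer to the 48 h libraries on the first component, at 16.8 against -7.26 and -8.88 for the other 24 h libraries, so counts are also given without it. Of 9 erythroid markers, which define the lineage this line resembles, 8 or 9 had at least 10 normalized counts in every library. SLC4A1 was the low one, at 7.79, 17.4 and 4.90 at 48 h, against 13.7, 19.1 and 28.5 at 24 h. Markers of other blood lineages were partly at or near 0: MPO, ELANE, S100A8 and S100A9 of granulocytes, CD2, CD8A and MS4A1 of lymphocytes and PF4 and GP9 of megakaryocytes were listed at 0 in all 6 libraries. Other members of the same marker lists were present in all 6. LYZ had 2614 to 3671 normalized counts, SPI1 1037 to 2229, ITGA2B 644 to 1468 and CD3D 304 to 503. In such bulk samples fewer cells of a kind and less RNA per cell cannot be told apart.

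By limma on log2 values, with p-values adjusted by Benjamini-Hochberg over all genes tested and called under 0.05, 7877 of 14424 genes (54.6%) differed between 48 and 24 h. Of these, 3900 genes (27%) were higher at 48 h and 3977 (27.6%) were lower. By 2-fold or more, 979 genes (6.79%) rose and 2082 (14.4%) fell. In what follows a value in brackets after a gene is its log2 fold change at 48 h over 24 h, with its standard error (SE) and adjusted p from this limma fit where given, and rises and falls by an amount are on the same log2 scale. These shares are the background against which the counts of each gene list are to be read. The libraries of the 48 h group lay entirely above those of the 24 h group for 4328 genes (30%) and entirely below for 4225 (29.3%). Without 24 h replicate 1, 7726 genes were called, 3831 higher and 3895 lower.

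The balance of rises and falls depended on how the libraries were scaled. The median log2 fold change of all genes tested was -0.02 with the authors' normalization. Scaling each library to an equal total moved that median to -0.39 and gave 1846 rises and 6339 falls, and centring each library on its median moved it to 0.13 and gave 4820 rises and 3302 falls. Medians of lists under another scaling are therefore to be read against -0.39 for equal totals, 0.13 for median centring and 0.05 for quantile normalization.

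**Figure D1:**
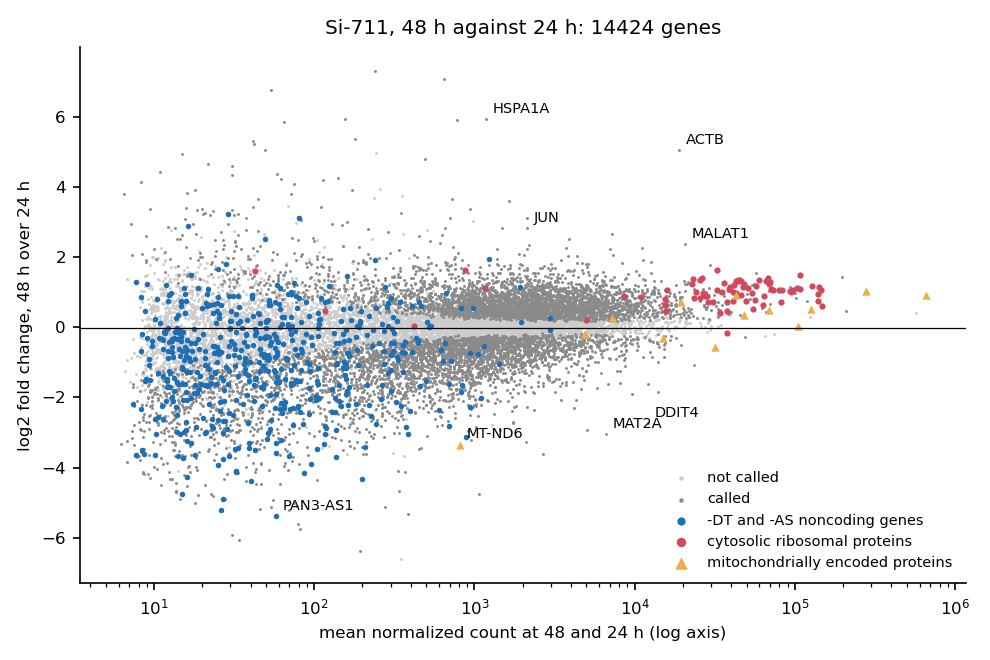
Log2 fold change at 48 h over 24 h against the mean normalized count at both times on a log axis, for the 14424 genes tested. Cytosolic ribosomal protein genes (red) lie at high counts with a median of 1.05, and noncoding genes named for a divergent or antisense position (blue) lie mostly below the line at the median of all genes. Mitochondrially encoded genes are triangles, and other genes are dark gray where called and light gray where not.

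SIRT1, the gene of the first named target (ENSG00000096717, GRCh38 chromosome 10, 67884669 to 67918390), had 545, 869.7 and 755 normalized counts at 48 h, against 994, 986 and 1011 at 24 h. Every 48 h library lay below every 24 h library, and replicate 1 was the lowest. SIRT1 fell by 0.49 on the log2 scale (SE 0.15, limma adjusted p = 0.012), and by 0.30 without 48 h replicate 1. Of the 6 sirtuin genes analysed here, 0 rose and 3 fell (0 and 50%, against 27 and 27.6% of all genes), with a median of -0.47. Equal totals gave 0 higher and 4 lower, median centring 1 and 2, and quantile normalization 0 and 2. Without 24 h replicate 1, 0 sirtuin genes rose and 2 fell. SIRT3, the main mitochondrial deacetylase, had 812, 596 and 528 normalized counts at 48 h, against 1061, 1051 and 1099 at 24 h (-0.75, adjusted p = 0.000339). SIRT5, a mitochondrial enzyme that removes succinyl and malonyl groups, was called lower (-0.46, adjusted p = 0.0455), but leaving out any of 5 of the 6 libraries ended the call, at -0.31 to -0.48. SIRT6 (0.20), SIRT7 (0.07) and SIRT4 (-0.92) were not called.

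Nearly all genes of the ribosome were higher at 48 h. Of the 8 genes with the largest rises in normalized counts, 5 were those of ribosomal proteins (RPL3, RPL4, RPL14, RPS18 and RPS2) and 1 was EEF2, whose product moves the ribosome along the messenger. Their starts are shown because a pyrimidine run there is the feature such genes are known for. Each line gives, 5′ to 3′ on the strand of the gene, 10 bases before the listed start and 20 bases from it on, with the pyrimidine run at or next after the start in capitals (RefSeq, GRCh38.p14).
RPL3 (chr22:39319604-39319633, - strand): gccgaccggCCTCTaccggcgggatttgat
RPL4 (chr15:66504836-66504865, - strand): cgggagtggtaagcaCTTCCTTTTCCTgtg
RPL14 (chr3:40457329-40457358, + strand): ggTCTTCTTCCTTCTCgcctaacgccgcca
RPS18 (chr6:33272065-33272094, + strand): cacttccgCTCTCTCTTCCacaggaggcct
EEF2 (chr19:3985444-3985473, - strand): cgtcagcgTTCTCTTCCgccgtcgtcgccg
RPS2 is named only. The runs were 5, 12, 14, 11 and 9 bases long in the order of the lines.

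Such runs were then counted at all starts. Between 5 bases before and 12 bases after a start, on the strand of the gene, the word CTTTC or the word CTCTT or else the word CTTCC, whose matches can overlap, stood in 43 of 60 ribosomal protein genes with an entry (71.7%), 5 of 10 other translation genes (50%) and 3 of 13 snoRNA host genes (23.1%), against 9.83% of the 27305 genes of the table. These 3 words were put together after the matches of each, and of 3 longer ones, had been seen. Of the longer ones, CTTTCC stood in 26.7% of the ribosomal protein genes, against 1.1% of all genes. CTCTTT stood in 20%, against 0.802%. CTTTTT stood in 3.33%, against 0.531%. A match is a description of the letters at a listed start and was not tested against the expression values.

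Of 76 ribosomal protein genes tested, 72 rose (94.7%, against 27% of all genes) and 0 fell, with a median log2 fold change of 1.05. Among the 3606 genes with the highest means over all libraries 48.9% rose, and the part of level was not tested. Of the genes of the large subunit 44 of 46 rose, and of those of the small subunit 28 of 30. The genes together took 15.5, 13.7 and 14.8% of all normalized counts in the 48 h libraries, against 10.1, 9.21 and 9.13% in the 24 h libraries. Equal totals gave a median of 0.67, with 67 higher and 1 lower, and median centring one of 1.19. Quantile normalization gave 0.29, with 49 higher and 6 lower. The 4 that were not called were RPS10 (0.46), RPS26 (0.21), RPL26 (0.04) and RPL6 (-0.16).

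RPL14, a protein of the large subunit (ENSG00000188846, GRCh38 chromosome 3, 40457292 to 40468587), had 158372, 141755 and 172332 normalized counts at 48 h, against 63229, 52104 and 54508 at 24 h, and the groups did not overlap (1.48, SE 0.10, adjusted p = 2.05e-07). RPL36A had 49074, 46849 and 52570.2 normalized counts at 48 h, against 16964, 15770.5 and 15445 at 24 h (1.62, adjusted p = 4.22e-08). RPS18, of the small subunit, had 187150, 163089 and 183171 at 48 h, against 91957, 73294 and 73926 at 24 h (1.16, adjusted p = 1.66e-06). In each of these genes the lowest 48 h library lay well above the highest 24 h library. Over the whole course RPL14 averaged 53539.5 untreated, 46256 after 8 h, 56614 after 24 h and 157486 after 48 h.

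Of 16 other translation genes known for such starts, 14 also rose and 0 fell (median 0.86, and 0.49 with equal totals). EEF2 had 265970, 237218 and 357913 normalized counts at 48 h, against 104295, 99252 and 113624 at 24 h (1.42, SE 0.13, adjusted p = 1.8e-06). EIF3E, a subunit of the initiation factor eIF3, had 16630.2, 18353 and 21569.8 at 48 h, against 8338, 5922 and 5458 at 24 h (1.54, adjusted p = 2.45e-06). TPT1, the translationally controlled tumor protein, rose by 1.22 (adjusted p = 4.75e-07), while EIF4B (0.17) and PABPC1, the poly(A) binding protein (-0.20), were not called. Among 36 genes that build ribosomes in the nucleolus, 6 rose and 11 fell (median -0.14). Equal totals gave 3 and 26, quantile normalization 3 and 21, and median centring 12 and 7. URB2, a nucleolar assembly factor, had 458, 546 and 495 at 48 h, against 1078, 1337 and 1511 at 24 h (-1.38, adjusted p = 1.23e-06), and POLR1A, the largest subunit of RNA polymerase I, fell by 0.91 (adjusted p = 0.00553, and by 0.61 without 24 h replicate 3).

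Host genes of small nucleolar RNAs, whose spliced exons often begin with a pyrimidine run and are degraded when they are translated, were also mostly higher. Of 15 tested, 12 rose and 1 fell, with a median of 1.00, and the median stayed at 0.63 with equal totals and 0.87 with quantile normalization. GAS5 (ENSG00000234741, GRCh38 chromosome 1, 173863900 to 173868882) had 48387, 45104 and 52909 normalized counts at 48 h, against 19622, 14007 and 15478 at 24 h (1.59, SE 0.12, adjusted p = 4.68e-07). EPB41L4A-AS1 had 2146, 1482 and 2246 at 48 h, against 547, 476 and 469 at 24 h (1.96, adjusted p = 2.75e-06). SNHG3 was called lower (-0.58, adjusted p = 0.0161), but not without 24 h replicate 3 (-0.42), 48 h replicate 2 (-0.48) or 48 h replicate 3 (-0.48), nor with median centring (-0.44). GAS5 over the course averaged 8492 untreated, 9557 after 8 h, 16369 after 24 h and 48800.0 after 48 h. Of 9 small nucleolar RNA genes themselves with enough counts, 6 rose and 0 fell, SNORD3A with 239.9, 180.1 and 231 at 48 h, against 10.2, 8.17 and 14.8 at 24 h (4.20, adjusted p = 8.49e-07). These were 9 of 821 such genes, and their means summed to only 532 at 48 h and 131 at 24 h. Genes this low can pass the filter through the time where they are high, so the counts cannot give a direction for the class. Mature small nucleolar RNAs carry no poly(A) tail, so a polyadenylated library holds only part of them.

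**Figure D2:**
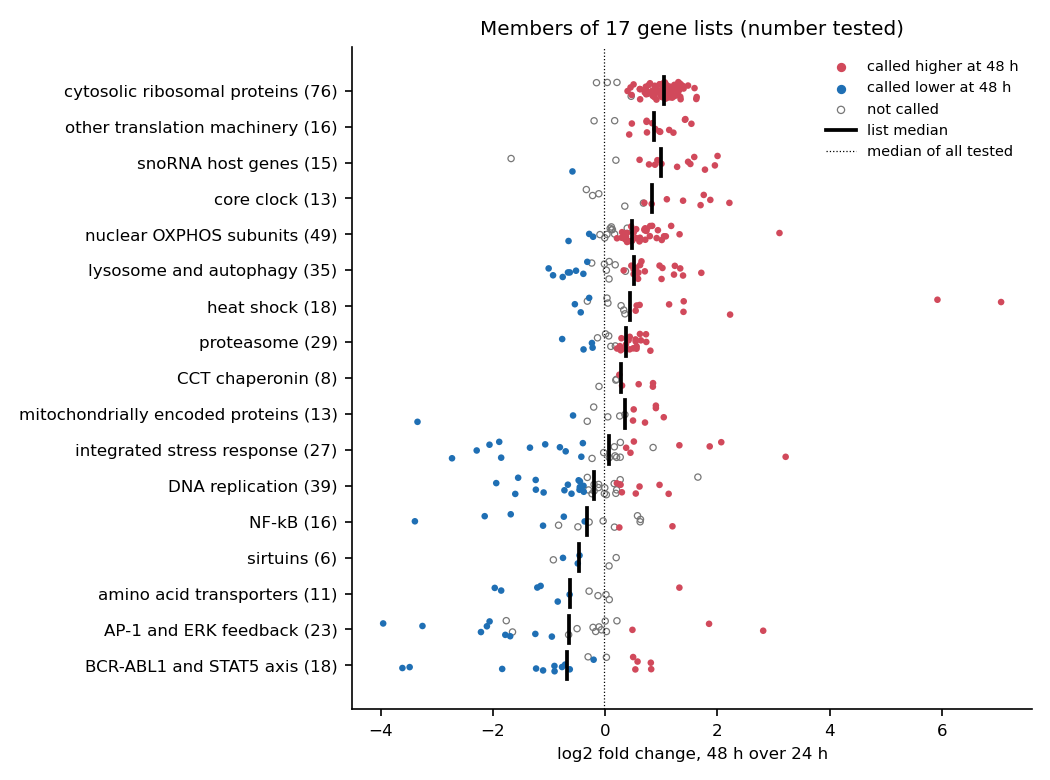
Log2 fold change at 48 h over 24 h of each tested member of 17 gene lists, with the number tested in brackets, called members filled and uncalled members open. Thick bars are list medians and the dotted line is the median of all genes tested. Ribosomal protein genes and snoRNA host genes sit to the right of the line, and most members of the BCR-ABL1 and STAT5 list to the left.

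Inducible chaperones were among the largest rises by ratio. HSPA1A, HSPA1B and HSPA1L encode HSP70 proteins and lie side by side on chromosome 6. HSPA1A and HSPA1B are nearly identical in sequence and HSPA1L is related, so reads can be divided unevenly among them, and their sum is given first. The 3 genes together had 4047, 4187 and 3952 normalized counts at 48 h, against 36.4, 115 and 67.1 at 24 h. The 48 h mean was 55.9-fold above the 24 h mean, and untreated cells held 364, 144 and 248. HSPA1A alone (ENSG00000204389, GRCh38 chromosome 6, 31815464 to 31817946) had 2403, 2533 and 2079 at 48 h, against 36.4, 47.2 and 30.5 at 24 h (5.92, SE 0.54, adjusted p = 1.47e-06). HSPA1B (7.06) and HSPA1L (7.29) were listed at 0 in 1 and 2 of the 24 h libraries, so that their fitted changes depend on the value added before the log.

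HSPA6, an HSP70 that is close to silent without stress and stands outside the list of heat shock genes (ENSG00000173110, GRCh38 chromosome 1, 161524540 to 161526910), had 965, 1064 and 805 normalized counts at 48 h, against 23.9, 40.6 and 37.4 at 24 h (4.78, SE 0.24, adjusted p = 3.45e-08). DNAJB1, the HSP40 partner of HSP70, had 11555, 12134 and 11049 at 48 h, against 1873, 2889 and 2791 at 24 h (2.23, SE 0.13, adjusted p = 8.3e-08). HSP90AA1, the inducible HSP90, had 67982, 66682 and 63364 at 48 h, against 24069, 23767 and 27352 at 24 h (1.40, SE 0.10, adjusted p = 2.22e-07). In none of the 3 did the groups overlap, and the 24 h means of DNAJB1 and HSP90AA1 lay below those of untreated cells. DNAJB1 averaged 5852 untreated, 3721 after 8 h, 2518 after 24 h and 11579.5 after 48 h, and HSP90AA1 averaged 61224 untreated, 40121 after 8 h, 25063 after 24 h and 66009.6 after 48 h. BAG3, a cochaperone of HSP70, had 2057, 1855 and 1943 at 48 h, against 1294, 1236 and 1293 at 24 h (0.61, adjusted p = 1.63e-05).

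Of the 18 heat shock genes tested, 9 rose and 3 fell (median 0.45, 0.07 with equal totals and 0.00 with quantile normalization). HSPA8, the constitutive HSP70, was not called, with 40602, 31472 and 35072 at 48 h, against 19699.9, 32055 and 35738 at 24 h (0.33, adjusted p = 0.126). DNAJA1, an HSP40, fell (-0.54, adjusted p = 0.00243), as did STIP1, which links HSP70 to HSP90 (-0.44). HSPE1, a mitochondrial cochaperonin, was called lower (-0.29), a call that ended without any of 4 libraries (-0.20 to -0.29). Among the 8 subunits of the CCT chaperonin, which folds actin and tubulin, 5 rose and 0 fell, with a median of 0.28 that was -0.10 with equal totals and -0.16 with quantile normalization. CCT8 had 38393, 32163 and 37863 at 48 h, against 21522, 18834 and 19599 at 24 h (0.85, adjusted p = 6.67e-06).

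The promoters of HSPA6 and HSP90AA1 are shown because they carry the full heat shock element among the chaperones that rose. Each line gives the 120 bases before a RefSeq start, 5′ to 3′ on the strand of the gene, with the match to GAANNTTCNNGAA or its complement TTCNNGAANNTTC in capitals (GRCh38.p14, RefSeq). HSP90AA1 has 2 listed starts, and the one printed is the one with a match.
HSPA6 (chr1:161524420-161524539, + strand): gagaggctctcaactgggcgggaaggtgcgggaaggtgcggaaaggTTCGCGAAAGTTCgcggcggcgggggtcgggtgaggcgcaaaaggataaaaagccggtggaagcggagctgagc
HSP90AA1 (chr14:102087045-102087164, - strand): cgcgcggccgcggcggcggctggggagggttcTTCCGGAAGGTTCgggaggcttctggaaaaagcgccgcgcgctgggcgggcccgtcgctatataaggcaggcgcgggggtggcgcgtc
In the windows from 250 bases before to 50 bases after any start, the element was found in 6 of the 18 heat shock genes (33.3%), against 0.608% of all genes. Of those 6, HSP90AA1 rose, DNAJA1 fell, and HSPA8, HSPD1, HSP90AB1 and DNAJB6 were not called, so genes with the match went in both directions. The letters were not found in the windows of HSPA1A, HSPA1B or DNAJB1. A site for ATF4, TGATGNAA or TTNCATCA, was also looked for and stood in 4 of 22 integrated stress response genes (18.2%), against 4.46% of all genes. Those 4 were ATF3 (-0.40), CEBPG (-0.43), ASNS (0.27) and SLC3A2 (1.32).

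**Figure D3:**
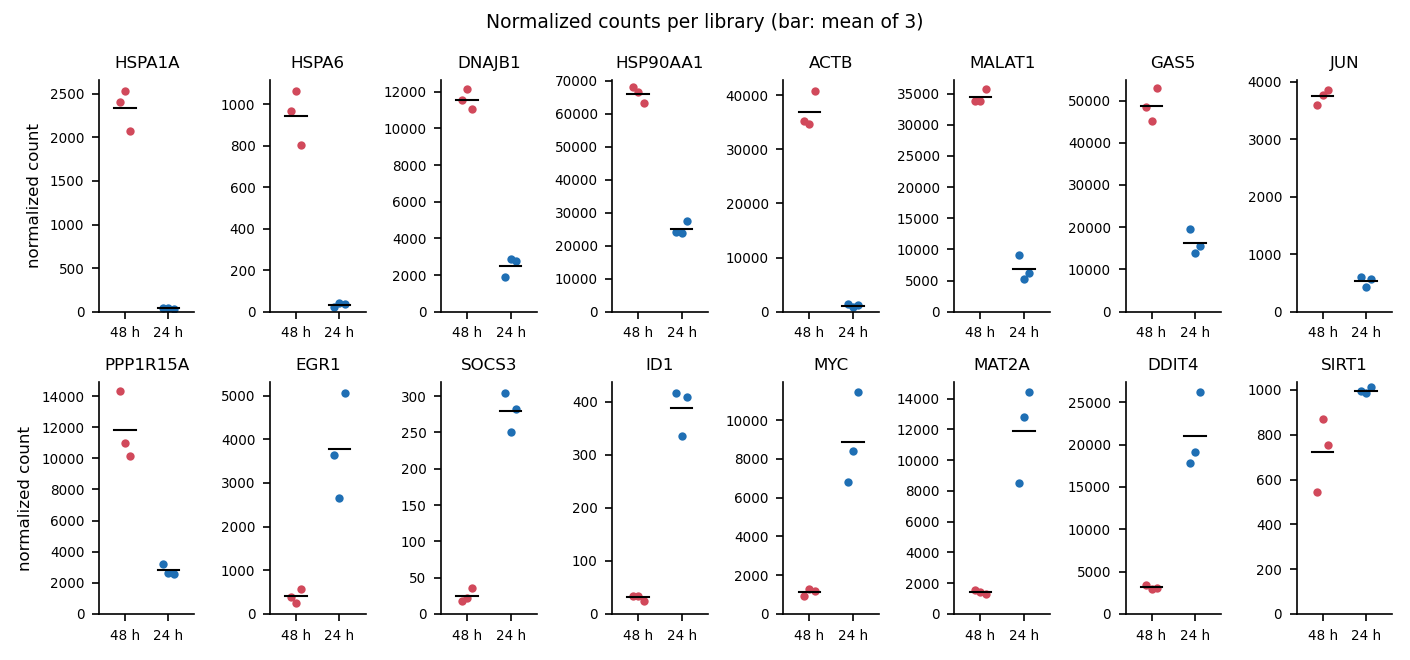
Normalized counts of 16 genes in the 3 libraries at 48 h (red, left) and the 3 at 24 h (blue, right), each on its own axis from 0, with bars at the means. The groups do not overlap in any of the 16 genes shown, and HSPA1A, HSPA6 and ACTB lie near 0 at 24 h on these axes.

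The integrated stress response did not move as a block on the second day. Of 27 genes tested, 7 rose and 11 fell, with a median of 0.07 that was -0.30 with equal totals and -0.16 with quantile normalization. Its factor ATF4 had 22160.1, 18957 and 21906 normalized counts at 48 h, against 15818, 14439 and 15808 at 24 h, a rise of 0.45 (adjusted p = 0.00138) that was 0.07 with equal totals and 0.02 with quantile normalization, without a call. Several genes it is known to drive were lower. DDIT4, an inhibitor of mTORC1 (ENSG00000168209, GRCh38 chromosome 10, 72273920 to 72276036), had 3418, 2944 and 3027 at 48 h, against 17787, 19164 and 26187 at 24 h (-2.73, SE 0.21, adjusted p = 5.01e-07). TRIB3, a pseudokinase that restrains ATF4, had 1580.2, 1471 and 1217 at 48 h, against 7180.3, 5945 and 7782 at 24 h (-2.29, adjusted p = 2.78e-07). Both had been highest at 24 h: DDIT4 averaged 2394 untreated, 9623 after 8 h, 21046 after 24 h and 3129.7 after 48 h, and TRIB3 averaged 2842 untreated, 3859 after 8 h, 6969 after 24 h and 1423 after 48 h.

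STC2, a secreted glycoprotein, had 297, 537 and 591 normalized counts at 48 h, against 1682, 1763 and 2329 at 24 h (-2.06, adjusted p = 2.25e-05), and PYCR1, of proline synthesis, fell by 1.89 (adjusted p = 6.75e-07). PPP1R15A, the phosphatase subunit GADD34 that reverses eIF2 phosphorylation, rose instead, with 14298, 10959 and 10175 at 48 h, against 3208, 2641 and 2546 at 24 h (2.07, SE 0.14, adjusted p = 2.22e-07). GDF15, a stress-induced cytokine, had 19836, 18469 and 20906 at 48 h, against 8369, 3829.9 and 4965 at 24 h (1.86, adjusted p = 1.47e-05). The list was thus split within its own effectors. ASNS (0.27), DDIT3, which encodes CHOP (0.20), and SLC7A11, the cystine transporter (0.07), were not called and stayed above untreated cells, with means of 17335, 2929 and 2363 at 48 h, against 5425, 913 and 658 in untreated cells.

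Among amino acid supply genes, transporters were more often lower than higher. Of 11 amino acid transporters 1 rose and 6 fell, with a median of -0.63 (-0.49 with median centring). SLC7A5, the light chain of the large neutral amino acid transporter LAT1, had 5253, 6499 and 6464 normalized counts at 48 h, against 20991, 19619 and 25368 at 24 h (-1.85, SE 0.11, adjusted p = 8.31e-08). SLC3A2, the heavy chain that pairs with it, had 32000.0, 27085 and 28123 at 48 h, against 12506, 10164 and 12268 at 24 h (1.32, SE 0.09, adjusted p = 2.54e-07). The chains of one transporter thus changed in opposite directions, with no overlap between groups in either. Of 11 serine and one-carbon enzymes, 2 rose and 4 fell (18.2 and 36.4%, against 27 and 27.6% of all genes). With equal totals 1 of these enzymes rose and 9 fell, and with median centring 2 rose and 3 fell. PHGDH, the first enzyme of serine synthesis, had 141, 54.9 and 73.8 at 48 h, against 292, 399.5 and 411 at 24 h (-2.12, adjusted p = 6.02e-05), and PSAT1, the second, fell by 0.98 (adjusted p = 1.91e-06). MTHFD1, a cytosolic folate enzyme, rose by 1.62 (adjusted p = 3.84e-07).

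MAT2A, which makes S-adenosylmethionine (ENSG00000168906, GRCh38 chromosome 2, 85539165 to 85545280), had the largest fold change among the 8 largest falls in counts, with 1528, 1427 and 1281 normalized counts at 48 h, against 8525, 12805 and 14409.5 at 24 h (-3.04, SE 0.15, adjusted p = 3.45e-08). FASN, fatty acid synthase, had 13058, 17169 and 15126 at 48 h, against 32652, 26579 and 35936 at 24 h (-1.07, adjusted p = 4.87e-05). PARP1, an NAD-consuming enzyme of DNA damage signaling, had 6087, 5943 and 5711 at 48 h, against 16019.9, 19066 and 19878 at 24 h (-1.63, SE 0.08, adjusted p = 3.45e-08). For all 3 genes the highest 48 h library lay below the lowest 24 h library. Among the sterol genes, LSS, which closes the sterol ring, fell by 2.92 (adjusted p = 4.54e-07) and FDFT1, squalene synthase, rose by 2.33 (adjusted p = 4.18e-07), within a list of 26 where 4 rose and 7 fell. With equal totals 1 of the list rose and 18 fell, and with quantile normalization 1 rose and 15 fell.

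**Figure D4:**
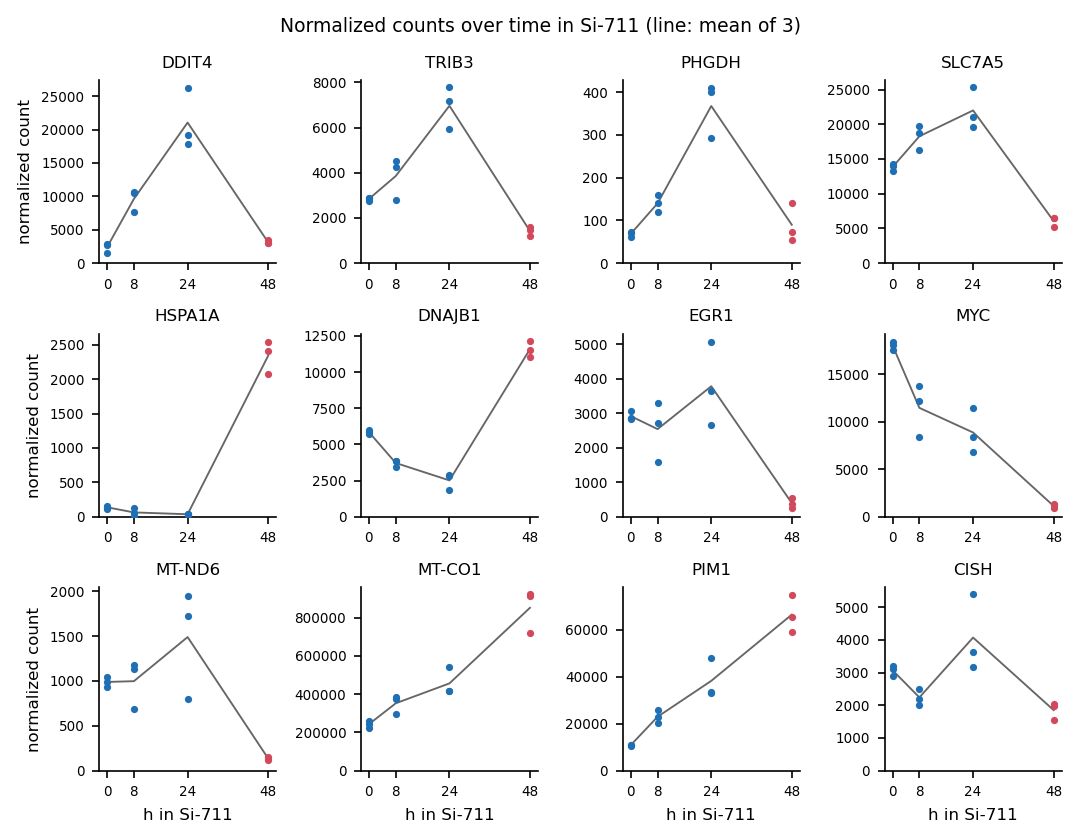
Normalized counts of 12 genes in all libraries at 0, 8, 24 and 48 h in Si-711, with untreated cells at 0 h, lines through group means and the 48 h libraries in red. DDIT4, TRIB3 and PHGDH peak at 24 h, HSPA1A is near 0 before 48 h, and MYC is lower at each later time.

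Immediate early genes of the ERK pathway fell more often than they rose. Of 23 AP-1 and ERK feedback genes, 3 rose and 9 fell (13 and 39.1%, against 27 and 27.6% of all genes), with a median of -0.65. Scaling moved that median to -1.01 (equal totals), -0.51 (median centring) and -0.28 (quantile normalization). EGR1, an early transcription factor, had 384, 257 and 559 normalized counts at 48 h, against 3632, 2654 and 5065 at 24 h (-3.26, SE 0.30, adjusted p = 1.6e-06). FOSL1, an AP-1 subunit, had 55.9, 91 and 68.9 at 48 h, against 295, 298 and 412 at 24 h (-2.22, adjusted p = 9.21e-07). JUN, the AP-1 subunit that cells under stress induce, was among the 3 that rose (ENSG00000177606, GRCh38 chromosome 1, 58780788 to 58784327). It had 3602, 3771 and 3859 at 48 h, against 608, 432 and 567 at 24 h (2.82, SE 0.22, adjusted p = 4.6e-07), and DUSP1, a phosphatase of stress kinases, rose by 1.85 (adjusted p = 4.11e-06). SPRY4, a feedback inhibitor of RAS signaling, fell by 1.25 (adjusted p = 4.22e-05), whereas DUSP6 (-0.07), SPRY2 (-0.22) and ETV4 (-0.11) were not called.

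Genes of the BCR-ABL1 and STAT5 axis fell more often than they rose, 11 against 5 of 18 (61.1% lower, against 27.6% of all genes), with a median of -0.67. SOCS3, a feedback inhibitor of cytokine receptors (ENSG00000184557, GRCh38 chromosome 17, 78356778 to 78360077), had 17.2, 22.6 and 35.1 normalized counts at 48 h, against 305, 250.3 and 283 at 24 h (-3.49, SE 0.24, adjusted p = 2.13e-07). ID1, an inhibitor of helix-loop-helix factors, had 34.4, 34.7 and 23.9 at 48 h, against 418, 336 and 409.6 at 24 h (-3.62, SE 0.19, adjusted p = 3.47e-08). CISH, another STAT5 target, had 1557, 2030.1 and 1967 at 48 h, against 5413, 3164 and 3638 at 24 h (-1.11, adjusted p = 9.18e-05). PIM1, a kinase that STAT5 also induces, was higher, with 59094, 74915 and 65541 at 48 h, against 48187, 33195 and 33453 at 24 h (0.81, adjusted p = 0.000246), though not with quantile normalization (0.02). BCR, whose promoter drives the fusion, had 1285, 916 and 868 at 48 h, against 3313, 3619.7 and 3893 at 24 h (-1.84, SE 0.13, adjusted p = 3.12e-07), and ABL1 had 5946, 7468 and 5596 at 48 h, against 10100.1, 10828 and 11269 at 24 h (-0.77, adjusted p = 3.23e-05). Counts per gene cannot separate reads of the fusion from those of the normal copies.

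Of the pro-survival members of the BCL2 family, 3 of 4 tested fell and 0 rose. MCL1, which protects mitochondria from BAX and BAK, had 2158, 3004 and 2336 normalized counts at 48 h, against 6617, 6869 and 7826 at 24 h (-1.52, SE 0.11, adjusted p = 3.18e-07). BCL2L1, which encodes BCL-XL, had 2736, 2783 and 2784 at 48 h, against 4541, 5075 and 6018 at 24 h (-0.90, adjusted p = 2.64e-05), and BCL2 fell by 0.92 (adjusted p = 0.0137), a call that ended without 48 h replicate 1 (-0.59). Of 12 pro-apoptotic genes 3 rose and 2 fell. BCL2L11, which encodes the BH3-only protein BIM, had 4150.1, 4248 and 5052 at 48 h, against 1835, 1209 and 1376 at 24 h (1.62, SE 0.15, adjusted p = 1.36e-06). BOK (-1.55, adjusted p = 0.000162) and BAK1 (-0.94) fell.

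MYC, the growth factor-driven transcription factor, had 943, 1303 and 1203 normalized counts at 48 h, against 6798, 8393 and 11429.8 at 24 h (-2.93, SE 0.19, adjusted p = 1.7e-07), and the groups were far apart. Its mean was lower at each later time: 18028 untreated, 11463 after 8 h, 8874 after 24 h and 1149.5 after 48 h. Its antagonist MXD1 had 3633, 3452 and 3578 at 48 h, against 1374, 1108 and 1165 at 24 h (1.55, adjusted p = 1.32e-07). The list of MYC network genes did not lean either way, with 3 of 11 tested higher and 3 lower (median -0.01). That is 27.3% each, against 27% higher and 27.6% lower of all genes. All 4 G1/S regulators tested fell, with a median of -1.17. CCNE1, cyclin E1, had 631, 434 and 627 at 48 h, against 1173, 1327 and 1449.7 at 24 h (-1.24, adjusted p = 1.11e-05). PCNA, the polymerase clamp, had 1589, 2210.0 and 1926 at 48 h, against 5218, 5740.2 and 5702 at 24 h (-1.55, SE 0.10, adjusted p = 1.82e-07). Of all 39 DNA replication genes 8 rose and 16 fell, and 2 and 27 with equal totals (median -0.20, and -0.06 with median centring).

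Mitotic genes showed the opposite balance under the authors' normalization, with 16 of 38 higher and 8 lower (median 0.19), but with equal totals 5 rose and 16 fell (median -0.19). NUF2, of the kinetochore, rose by 0.89 (adjusted p = 0.000123), and ASPM, a spindle pole protein, had 724, 934 and 813 at 48 h, against 2205, 2428 and 2639 at 24 h (-1.56, adjusted p = 1.32e-07). CDKN1A, which encodes the CDK inhibitor p21, had 233, 368 and 348 at 48 h, against 625, 545 and 648 at 24 h (-0.96, adjusted p = 0.000581). CCNG1 and CCNG2, cyclins outside the core cycle, rose by 1.22 and 1.28 (adjusted p = 2.99e-06 and 5.14e-05). H2AX, a histone variant of DNA damage signaling with a polyadenylated form, had 390.2, 578 and 425 at 48 h, against 2604, 3222 and 3216 at 24 h (-2.71, SE 0.13, adjusted p = 2.99e-08).

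Genes of the mitochondrial genome split. Of its 13 protein genes 6 rose and 2 fell, with a median of 0.35. Their direction depended on scaling: equal totals gave a median of -0.03, and quantile normalization one of -0.37 with 1 higher and 8 lower. MT-CO1, of complex IV, had 719778, 911140 and 922658 normalized counts at 48 h, against 539152, 414422 and 414074 at 24 h (0.90, adjusted p = 0.000204). MT-ND1, of complex I, had 21521, 24720.2 and 30444 at 48 h, against 37867, 34826 and 40480.4 at 24 h (-0.57, adjusted p = 0.00215). MT-ND6, the sole protein gene read from the light strand, had 121, 138 and 149 at 48 h, against 1951, 796 and 1721 at 24 h (-3.35, SE 0.28, adjusted p = 8.9e-07). MT-ND1 was the other that fell, and 24 h replicate 2 was the lowest library of MT-ND6 at that time. Whether strand was used in quantification was not given in the sources used here, so reads of MT-ND6 and of the transcripts opposite it may not be fully separated.

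Nuclear genes of the respiratory chain and ATP synthase were mostly higher, 37 of 49 higher and 3 lower (75.5% higher, against 27% of all genes), with a median of 0.48. With equal totals 20 rose and 11 fell, and the median was 0.10. Of the 3606 genes with the highest means over all libraries 48.9% rose, and the part of level in this list was not tested. UQCRB, of complex III, had 18069, 17807 and 20771 normalized counts at 48 h, against 7844, 7508 and 7207 at 24 h (1.33, SE 0.09, adjusted p = 2.61e-07). COX7C, of complex IV, had 13928, 12111 and 14334 at 48 h, against 6851, 5948 and 6266 at 24 h (1.08, adjusted p = 3.84e-07). Of 36 mitochondrial ribosomal proteins 16 rose and 6 fell, but with equal totals 8 rose and 17 fell.

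Clock genes were mostly higher. Of 13 tested, 8 rose and 0 fell (61.5% higher), with a median of 0.83, and 0.45 with equal totals, where 6 rose and 1 fell. PER1, a repressor of the clock and an early target of several signals, had 2471, 2026 and 2241 normalized counts at 48 h, against 698, 436 and 367 at 24 h (2.21, SE 0.22, adjusted p = 2.73e-06). NR1D1, which encodes REV-ERBα, had 761, 741 and 541 at 48 h, against 248, 198 and 179 at 24 h (1.70, adjusted p = 4.98e-06). DBP, an output factor, had 274, 294 and 254 at 48 h, against 86.7, 76.6 and 60.8 at 24 h (1.87, adjusted p = 8.88e-05). The activator BMAL1 was not called (-0.34). Libraries were taken at fixed times of exposure, and the hour of the day of each harvest was not given in the sources used here.

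Degradation pathways were higher under the authors' normalization. Of 35 lysosome and autophagy genes 20 rose and 8 fell (median 0.51, 0.13 with equal totals), and of 29 proteasome genes 20 rose and 4 fell (median 0.37, -0.01 with equal totals). NPC2, a lysosomal cholesterol carrier, had 1499, 1729 and 1582 normalized counts at 48 h, against 720.4, 637 and 498 at 24 h (1.39, adjusted p = 1.4e-05). SQSTM1, the autophagy receptor p62, had 4607, 5638 and 4788 at 48 h, against 2457, 2371 and 2557 at 24 h (1.02, adjusted p = 1.05e-06). OPTN, another receptor, rose by 1.34 (adjusted p = 2.04e-05). TFEB, the factor known for driving lysosomal genes, fell, with 159, 113 and 122 at 48 h, against 241, 278 and 267 at 24 h (-1.01, adjusted p = 0.000281).

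The fetal globins rose under the authors' normalization. HBG1 and HBG2, the nearly identical gamma globins, summed to 83456, 85166 and 89087 normalized counts at 48 h, against 50491, 39429.7 and 42751 at 24 h, 1.94-fold higher on average. The sum was 331623, 322315 and 177924 in untreated cells. HBG2 rose by 1.03 and HBG1 by 0.87 (adjusted p = 0.00317 and 0.0018), and both calls were lost with quantile normalization (0.29 and 0.28). Of 8 globin genes tested 3 rose and 0 fell, and HBZ, the embryonic zeta globin, was not called (0.17). Of 14 erythroid and megakaryocytic transcription factors 6 rose and 7 fell. GATA1 was called higher (0.36, adjusted p = 0.00987), but was at -0.02 with equal totals and 0.02 with quantile normalization, without a call. KLF1 fell (adjusted p = 0.00173), with 1312, 2138 and 1080.0 at 48 h, against 2149, 3786 and 2982 at 24 h, and the groups all but met. TAL1 had 719, 973 and 736 at 48 h, against 1896, 2477 and 2747 at 24 h (-1.55, adjusted p = 5.85e-06). FECH, the last enzyme of heme synthesis, fell by 1.65 (adjusted p = 5.93e-05).

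Markers of other lineages were called less often than all genes tested, of which 27% rose and 27.6% fell. Of 16 granulocyte and monocyte genes tested 2 rose and 3 fell. Of 10 megakaryocyte and platelet genes 2 rose and 1 fell, and of 5 lymphocyte genes 0 rose and 1 fell. Of 7 stromal and epithelial genes 2 rose and 1 fell. The markers ITGA2B (0.66, adjusted p = 0.0442), KRT18 (0.74) and EPCAM (0.52) were called higher and COL1A2 (-1.95) lower. Of the 3606 genes with the lowest means over all libraries 6.82% rose and 23.5% fell, and the part of level was not tested. The 9 granulocyte and monocyte markers summed to 5227 to 6128 normalized counts at 48 h, against 4022 to 5139 at 24 h, nearly all from LYZ, SPI1 and ITGAM. SPI1, a myeloid transcription factor, was called higher (0.71, adjusted p = 0.0153), a call that ended without 24 h replicate 2 (0.66) or 48 h replicate 1 (0.57), and with equal totals (0.34).

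Antisense and long intergenic genes fell far more often than they rose. Among 634 genes annotated as antisense, 28 rose and 290 fell (4.42% against 27% of all genes higher), with a median of -0.91, and among 648 annotated as lincRNA, 45 rose and 259 fell (median -0.74). Protein-coding genes had a median of 0.04, with 3642 of 12106 higher and 3160 lower. Of 178 genes named as divergent transcripts, 6 rose and 89 fell, with a median of -1.08 that ranged between -1.42 (equal totals) and -0.57 (quantile normalization). These classes were chosen after the results had been seen. Without strand in the quantification, reads of an antisense gene and of its partner could not be told apart. The level of a gene moved with these calls, and a low gene could pass the filter through either time alone. The part of level and filter in these counts was not tested. Of the 3606 genes with the lowest means over all libraries 6.82% rose and 23.5% fell, and of the 3606 with the highest 48.9% rose and 21.4% fell.

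MRPL20-DT (ENSG00000272455, GRCh38 chromosome 1, 1409096 to 1410618) had 15, 23.5 and 15.6 normalized counts at 48 h, against 320.5, 448 and 363 at 24 h (-4.33, SE 0.22, adjusted p = 3.45e-08). LINC01311 had 20.3, 47.9 and 14.3 at 48 h, against 557, 688 and 695 at 24 h (-4.68, adjusted p = 2.13e-07). PAN3-AS1, which starts beside the deadenylase gene PAN3, had 2.13, 0.977 and 2.38 at 48 h, against 111, 116 and 114 at 24 h (-5.38, SE 0.32, adjusted p = 8.31e-08). All 3 were under 50 in every 48 h library. PAN3 itself averaged 2473 at 48 h, against 1402 at 24 h (0.81, adjusted p = 0.000107). NFYC-AS1 had 10.7, 16.6 and 2.4 at 48 h, against 122, 213 and 151 at 24 h (-4.16, adjusted p = 1.11e-05), and its neighbor NFYC, a subunit of the CCAAT-binding factor NF-Y, averaged 3102 at 48 h, against 2085 at 24 h (0.58, adjusted p = 0.00022).

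Such neighbors were then compared pair by pair. In 461 pairs of a noncoding and a protein-coding gene that run in opposite directions from starts within 1000 bases of each other (GENCODE release 29), 23 noncoding genes rose and 232 fell (median -1.09), against 165 and 129 of the coding genes (median 0.10). The noncoding gene had the lower fold change in 356 of the 461 pairs. A low noncoding gene could pass the filter through 24 h alone. OTULIN-DT did so, with means of 0 at 48 h and 29.8 at 24 h, beside OTULIN at 1345 and 1437. The part of level and filter in these pair counts was not tested. Where the noncoding gene fell, the coding gene fell in 68 pairs, rose in 85 and was not called in 79. Noncoding genes of these types outside such pairs fell as well, though by less, with 78 of 997 higher, 372 lower and a median of -0.64. Equal totals gave medians of -1.46 for the noncoding and -0.28 for the coding genes. Median centring gave -0.95 and 0.24, and quantile normalization -0.62 and 0.02.

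**Figure D5:**
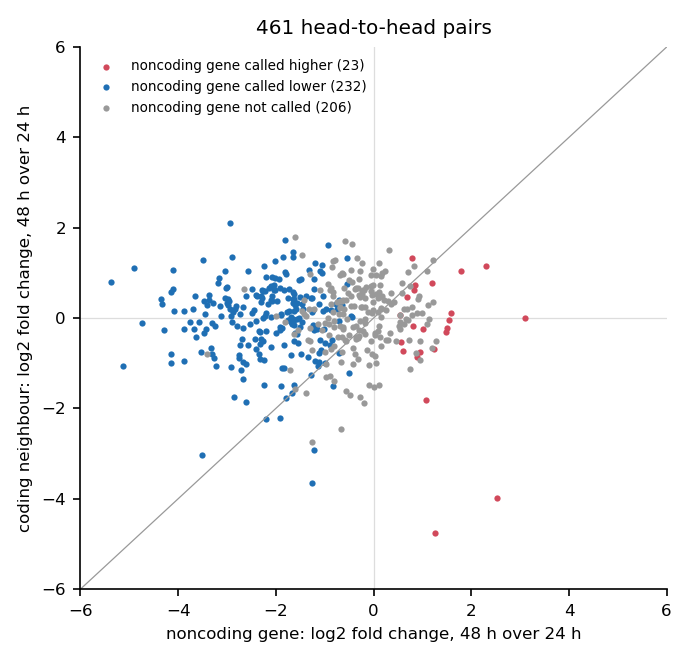
Log2 fold change at 48 h over 24 h of the noncoding gene (horizontal) and of its protein-coding neighbor (vertical) in 461 head-to-head pairs, with the line of equal change. The 232 noncoding genes that fell (blue) spread far to the left while their neighbors scatter around 0.

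Abundant long noncoding RNAs went both ways. MALAT1, a nuclear RNA of speckles (ENSG00000251562, GRCh38 chromosome 11, 65497688 to 65506516), had 33855, 33728 and 35652 normalized counts at 48 h, against 9132, 5184 and 6218 at 24 h (2.37, SE 0.16, adjusted p = 2.22e-07). MEG3, an imprinted RNA, had 63831, 86299 and 74637 at 48 h, against 34845, 31774 and 30806 at 24 h (1.20, adjusted p = 9.08e-07). NORAD, a cytoplasmic RNA that binds PUMILIO proteins, had 2701, 3048 and 2410.1 at 48 h, against 7832, 9243 and 9886 at 24 h (-1.72, adjusted p = 7.45e-08), and TUG1 fell by 1.76 (adjusted p = 2.12e-06). Host transcripts of microRNAs fell in 10 of 24 cases and rose in 3. MIR17HG, which carries the miR-17-92 cluster, averaged 37.9 at 48 h, against 630.3 at 24 h (-4.11, SE 0.26, adjusted p = 1.4e-07), and MIR142HG averaged 42.7 at 48 h, against 696 at 24 h (-4.13, adjusted p = 3.04e-07). Zinc finger genes with ZNF names, many of them repressors of repeated elements, rose in 55 of 407 cases and fell in 159 (median -0.37, -0.11 with quantile normalization).

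Splicing factors changed gene by gene, with 10 of 27 higher and 7 lower (6 and 16 with equal totals, 6 and 17 with quantile normalization), and a median of 0.12 that was -0.25 with equal totals. HNRNPA2B1 had 4305, 4139 and 3613 normalized counts at 48 h, against 11255, 16170.0 and 18064 at 24 h (-1.89, SE 0.14, adjusted p = 3.85e-07). TRA2B, a serine and arginine rich splicing activator, had 1613, 1955 and 1826 at 48 h, against 4872, 5896 and 6119 at 24 h (-1.64, adjusted p = 8.31e-08). SRSF3 had 12132, 9756 and 9727 at 48 h, against 3843, 5173 and 5469 at 24 h (1.13, adjusted p = 7.47e-06). SRSF1, of the same family as SRSF3, fell by 1.24 (adjusted p = 7.8e-07).

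ACTB, beta actin (ENSG00000075624, GRCh38 chromosome 7, 5527147 to 5563784), had 35226, 34771 and 40819 normalized counts at 48 h, against 1338, 864 and 1182 at 24 h (5.05, SE 0.17, adjusted p = 2.57e-09), and 1341, 1537 and 1233 in untreated cells. ACTG1, gamma actin, has nearly the same coding sequence, and reads can be traded between the pair. The sum of both was 80143, 68549 and 81424 at 48 h, against 25702, 29195 and 33974 at 24 h, 2.59-fold higher on average, which is far less than the change listed for ACTB alone. ACTN4, which crosslinks actin, fell by 2.23 (adjusted p = 1.05e-06). ALDOA, the aldolase of glycolysis, had 16262, 16608 and 22024 at 48 h, against 3884, 3728 and 3692 at 24 h (2.27, SE 0.13, adjusted p = 7.03e-08), in a list of 23 glycolysis genes of which 7 rose and 7 fell. With equal totals 3 of these rose and 14 fell, and with quantile normalization 4 rose and 12 fell.

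The other largest changes by ratio rested on libraries listed at or near 0. EIF3CL, a near copy of EIF3C, had 1317, 1126 and 2019 normalized counts at 48 h, against 125, 0 and 109 at 24 h (5.91, and 3.61 without 24 h replicate 2), and the sum with EIF3C was 2.33-fold higher. TLCD2 was listed at 0 in all 24 h libraries and had 100.1, 95.4 and 127 at 48 h. UBE3A, a ubiquitin ligase, had 217, 83.4 and 83.4 at 48 h, against 0, 2.07 and 1.62 at 24 h (5.85, adjusted p = 0.00256). How counts were divided among similar transcripts in these genes was not tested. UBBP4 and RPS3AP26 are pseudogenes of abundant messages, and H3C4 is a histone gene without a regular poly(A) tail, with fitted rises of 5.92, 4.07 and 4.35.

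Falls of the same kind were seen in ZBTB22, with 76.4, 0 and 0 normalized counts at 48 h, against 262, 421 and 396 at 24 h (-6.37, adjusted p = 0.0105), and in OLMALINC, with 60.4, 0 and 0 at 48 h, against 161, 152 and 97 at 24 h (-5.09, adjusted p = 0.0031). SMURF1, a ubiquitin ligase of BMP signaling, had 224, 18.7 and 0 at 48 h, against 407, 739 and 913 at 24 h (-5.31, and -3.29 without 48 h replicate 3). FLOT1, a membrane scaffold, had 561, 465 and 0 at 48 h, against 2368, 1836 and 1179 at 24 h (-4.75, adjusted p = 0.0291), and its call ended without 24 h replicate 1 (-4.52) or 2 (-4.71), while the value was -1.75 without 48 h replicate 3. In each of these 4 genes the 48 h libraries differed widely among themselves. KAT14, a subunit of the ATAC acetyltransferase complex, was low in all 48 h libraries, with 2.74, 7.51 and 0 at 48 h, against 51.6, 217 and 137 at 24 h (-5.20, SE 0.66, adjusted p = 2.26e-05). GDPGP1 (-4.47), BZW1P2 (-4.98) and DERL3, of ER-associated degradation (-4.91), were also among the 12 largest falls.

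The shares of the lists that follow are to be read against 27% higher and 27.6% lower of all genes. Histone deacetylases of the zinc-dependent classes rose in 3 of 11 cases (27.3%) and fell in 2 (18.2%). HDAC6, the tubulin deacetylase, had 3059, 2832 and 3131 normalized counts at 48 h, against 1836, 1307 and 1217 at 24 h (1.07, adjusted p = 0.000178). Lysine acetyltransferases split evenly, with 5 of 11 higher and 5 lower (45.5% each), EP300 by -1.13 (adjusted p = 0.00206) and KAT2A by 0.79 (adjusted p = 3.28e-05). Of 13 genes of NAD metabolism, 3 rose (23.1%) and 2 fell (15.4%), and NNT, the mitochondrial transhydrogenase, rose by 1.32 (adjusted p = 0.00157). NF-kB genes rose in 2 of 16 cases (12.5%) and fell in 6 (37.5%): NFKBIA, the inhibitor, rose by 1.20 and NFKB1 fell by 2.15 (adjusted p = 3.91e-05 and 1.35e-06). Polyamine genes rose in 3 of 10 cases (30%) and fell in 3 (30%). SAT1, of polyamine breakdown, had 18232, 16614 and 18563 at 48 h, against 6518, 3793 and 4149 at 24 h (1.93, adjusted p = 5.87e-07). AMD1, of synthesis, was lower by 1.76 (adjusted p = 4.22e-07). DNA repair genes rose in 10 of 35 cases (28.6%) and fell in 14 (40%). NRF2 and antioxidant genes rose in 11 of 24 (45.8%) and fell in 4 (16.7%). Aminoacyl-tRNA synthetases rose in 11 of 20 (55%) and fell in 7 (35%). Interferon-stimulated genes rose in 6 of 14 (42.9%) and fell in 2 (14.3%). The p53 targets rose in 2 of 17 (11.8%) and fell in 6 (35.3%). With equal totals the higher and lower counts were 5 and 21 for DNA repair, 3 and 8 for NRF2 and antioxidant genes, 6 and 9 for aminoacyl-tRNA synthetases, 3 and 4 for interferon-stimulated genes and 0 and 9 for p53 targets. Quantile normalization gave 6 and 8 for NRF2 and antioxidant genes and 6 and 9 for aminoacyl-tRNA synthetases, and median centring gave 11 and 8 for DNA repair.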

How the data were processed

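Polyadenylated RNA from K-562 cells was sequenced, and 1 table of gene values was deposited. The submitters' processing notes name cutadapt, Salmon, DESeq2 and GRCh38, with no order, and the deposited table is titled as DESeq2-normalized counts. Versions, the annotation release and the use of strand were not given in the sources used here. Values as deposited (a signal per gene, called normalized counts here) are not whole, not divided by gene length, and could not be turned back into reads: 43.6 to 68.2% of low values lay within 0.1 of a whole step. No count model was therefore run, and precision rests on 3 replicates a group. Per the labels the replicates are independent biological ones.

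From the deposited signal values, log2(value + 1) was fitted with limma 3.58.1 in R 4.3.3 over all 12 libraries and 4 groups, with an intensity trend in the prior variance and adjustment over 14424 genes. A log2 fold change is on that scale, which understates changes of low genes but can enlarge them where single libraries are listed at 0. FLOT1, for example, was fitted at -4.75, with means of 341.8 at 48 h and 1794.5 at 24 h. The fit was tested on simulated data with 200 of 14424 genes changed. It recovered 23 of 67 genes changed 1.5-fold, 39 of 67 changed 2-fold and 54 of 66 changed 4-fold, with 4 false calls. A gene not called can thus still have changed. Far fewer genes changed there than were called in the data, so these rates need not hold for the data. Coordinates are those of GENCODE release 29 and promoters those of RefSeq.

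Members, gene lists and tests were chosen with earlier results of these data known. Among called genes with a symbol, a mean of at least 50 and groups that did not overlap, those named were the 12 largest rises and falls by ratio, the 8 largest by counts, up to 4 called members a list and SIRT1. Others, such as ATF4, BCL2 and MIR17HG, were picked after their values were seen, as were gene families, gene types, neighbor pairs, summed genes and the genes plotted. Alternatives covered the value added, the filter, scaling, the libraries fitted, a replicate block, the prior, the threshold and leaving out each library. Deviations of same-numbered libraries correlated at -0.018, 0.075 and -0.059. With 3 replicates a group these values cannot settle whether equal numbers share a culture, which the labels do not say. SIRT2 was not analysed here.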

Additional observations from a re-analysis of the deposited data

How the results depend on the processing

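The count of genes called lay within 1.5 times of 7877 under every alternative run, at 6123 with an adjusted p under 0.01 and 6909 to 7731 when 1 library was left out. Its direction depended on scaling. Equal totals gave 1846 higher and 6339 lower, 356 and 3303 by 2-fold or more, and equal totals without ribosomal protein and mitochondrial genes gave 2346 higher, 462 by 2-fold or more. Median centring gave 4820 higher and 3302 lower. Same-numbered libraries did not deviate together, so the numbers were not taken to pair them; with the replicate block 7982 genes were called over 12 libraries and 7162 over the 6 alone.

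Of 52 list medians, 24 changed sign with equal totals and 20 with equal totals without ribosomal protein and mitochondrial genes. Quantile normalization changed the sign of 17, median centring of 8 and leaving out 24 h replicate 1 of 6. The medians named next changed sign with both values beyond the spread between 48 h libraries (1 SD). For the first 3 scalings, in that order, they were those of the integrated stress response (-0.30, -0.20, -0.16), fatty acid synthesis (-0.30, -0.19, -0.23), actin, vimentin and lamins (-0.29, -0.18, -0.32) and splicing factors (-0.25, -0.15, -0.33). For the first 2 they were histone genes (-0.23, -0.12) and the megakaryocyte list (-0.32, -0.22). For equal totals and quantile normalization they were aminoacyl-tRNA synthetases (-0.12, -0.15). For equal totals they also included mitochondrial ribosomal proteins (-0.20), ER chaperones (-0.17), NRF2 genes (-0.13), histone deacetylases (-0.19) and nuclear long RNAs (-0.13). Quantile normalization turned the mitochondrially encoded genes (-0.37) and, with median centring, the interferon list (0.065, and 0.035 with centring). Of single genes named by rule, CCT7 changed sign with equal totals (-0.078) and quantile normalization (-0.16). The megakaryocyte median lay between -0.16, without 24 h replicate 1, and 0.19, without 24 h replicate 2. Apart from these shifts by construction of the scaling, the cause was not tested. Of 226 genes named by rule, leaving out a library ended a call in 57 cases and kept it in 1299. A list median has no threshold, so the stricter one gave no value for it.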

Other observations

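Several groups outside the comparisons above were also measured. Genes of the SLC transporter family rose in 19 of 191 cases and fell in 71, with a median log2 fold change of -0.35 (-0.20 with quantile normalization). The BTG and TOB genes, whose products recruit deadenylases to messengers, fell in 4 of 5 cases and rose in 1. BTG1 averaged 394 normalized counts at 48 h, against 699 at 24 h (-0.84, adjusted p = 0.00171 by limma), and BTG2 averaged 1564 at 48 h, against 2989.6 at 24 h (-0.92, adjusted p = 0.00523). Pseudogenes named for ribosomal proteins rose in 21 of 48 cases and fell in 0, with a median of 0.98, and such copies can share reads with the genes they derive from.

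By transcript composition, the 3576 genes with the lowest share of G and C in their longest transcript had a median log2 fold change of 0.12, and the 3576 with the highest had -0.17. Among protein-coding genes, the 3027 with the shortest transcripts had a median of 0.20, with 37% higher and 20.4% lower. These groups were chosen after the results had been seen.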
